A study of Mus musculus with 15 samples.

Results

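The genes described here build and edit the sugar chains of glycoproteins, glycolipids and proteoglycans, here in A.E7, a clone of mouse CD4 T helper cells. They were chosen by symbol: sialyltransferases (St3gal, St6gal, St8sia), polypeptide GalNAc-transferases (Galnt), galactosyl- and N-acetylglucosaminyltransferases (B3gnt, B3galt, B4galt, Mgat, Gcnt), fucosyltransferases (Fut), carbohydrate sulfotransferases (Chst), heparan sulfate polymerases (Ext, Extl) and alpha-mannosidases (Man1, Man2). Of 15964 genes on the arrays, 91 carried such a symbol and 37 of these reached the minimum signal, 4 times the median of their chip type, in at least 1 treatment. The mannosidases are hydrolases, not transferases, and 2 of the 91 symbols (Man2c1os and Galnt6os) are antisense RNAs, both below the minimum. The last gene above the minimum was B3galt6 (215 with CSA, 4.21 times the median), and the first one below was St8sia1 (213 with mock, 3.87 times the median).

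A.E7 cells were stimulated with anti-TCR together with cyclosporin A, a calcineurin inhibitor (CSA), with anti-TCR together with a protein kinase C inhibitor given no other name (PKCi), with anti-TCR together with rapamycin, PD98059 and SB203580, which block mTOR, MEK and p38 (Combo), with anti-TCR alone, the condition titled anergic, or were mock stimulated. RNA of 2, 4 and 6 h was pooled within each treatment and hybridised to chips of 3 types with different probe sets, called A, B and C, which makes 15 arrays with 1 array per treatment and chip type. All treatments used the same clone, and differences between the 3 times cannot be seen in a pool. In such bulk RNA, fewer cells of a kind and less RNA per cell cannot be told apart. Of 8 CD4 T cell markers on the arrays, 7 reached the minimum (Cd5 did not), against 1 of 4 markers of CD8 T and NK cells (Klrd1), 1 of 7 of macrophages and dendritic cells (Cd14), 0 of 5 of B cells and 0 of 4 of erythroid cells and neutrophils. The summed CD8 T and NK cell markers stood at 1607 with anti-TCR alone and 4076 with mock, nearly all of it Klrd1. Their part in the results below was not tested.

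N-glycans are attached to asparagine in the endoplasmic reticulum, trimmed by mannosidases and rebuilt into branched antennae in the Golgi, while mucin-type O-glycans start with a GalNAc on serine or threonine. Both kinds of chain are extended with galactose and N-acetylglucosamine and capped with sialic acid, fucose or sulfate. Proteoglycans carry long heparan or chondroitin sulfate chains instead. On T cells these structures form ligands for selectins, galectins and other lectins, and they are known to change with activation.

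A gene was measured in a comparison where the brighter value reached the minimum (204 on chip type A, 278 on B and 220 on C). It is said to have risen or fallen where the values, raised to the chip type median (51.1, 69.5 and 55.0) where lower, lay at least 2-fold apart. With 1 array per treatment no difference has a replicate check and no test was possible. The only measure of error is how far the log2 ratio of a gene differs when chips of 2 types both read it. Taken as an SD, this technical error was 0.76 where anti-TCR alone is set against mock. Against anti-TCR alone it was 0.48 (CSA), 0.72 (PKCi) and 0.56 (Combo).

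Stimulation with anti-TCR alone moved these genes in both directions. Of 36 members measured, 8 rose (22.2%, against 11.4% of all genes measured) and 6 fell (16.7%, against 13.9%), so that 14 of 36 changed, against 25.3% of all genes. Ext1, B4galt5, Chst11, Extl3, Man1a2, Galnt3, B3gnt2 and Mgat2 rose; St8sia4, Chst12, Man2a2, St3gal6, Fut7 and B3galt5 fell. Of these 14 changes, 7 were larger than 2 technical SDs: those of St8sia4, Ext1, Chst12, Man2a2, B4galt5, Chst11 and St3gal6. The median log2 ratio of the 36 was 0.03, against -0.08 over all genes measured. A gene bright in only 1 treatment enters a comparison through that treatment, as did B3galt6 (CSA), B4galt5 and Extl3 (both anti-TCR alone) and St3gal6 (mock), so the counts describe the measured genes and not all 91.

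**Figure D1:**
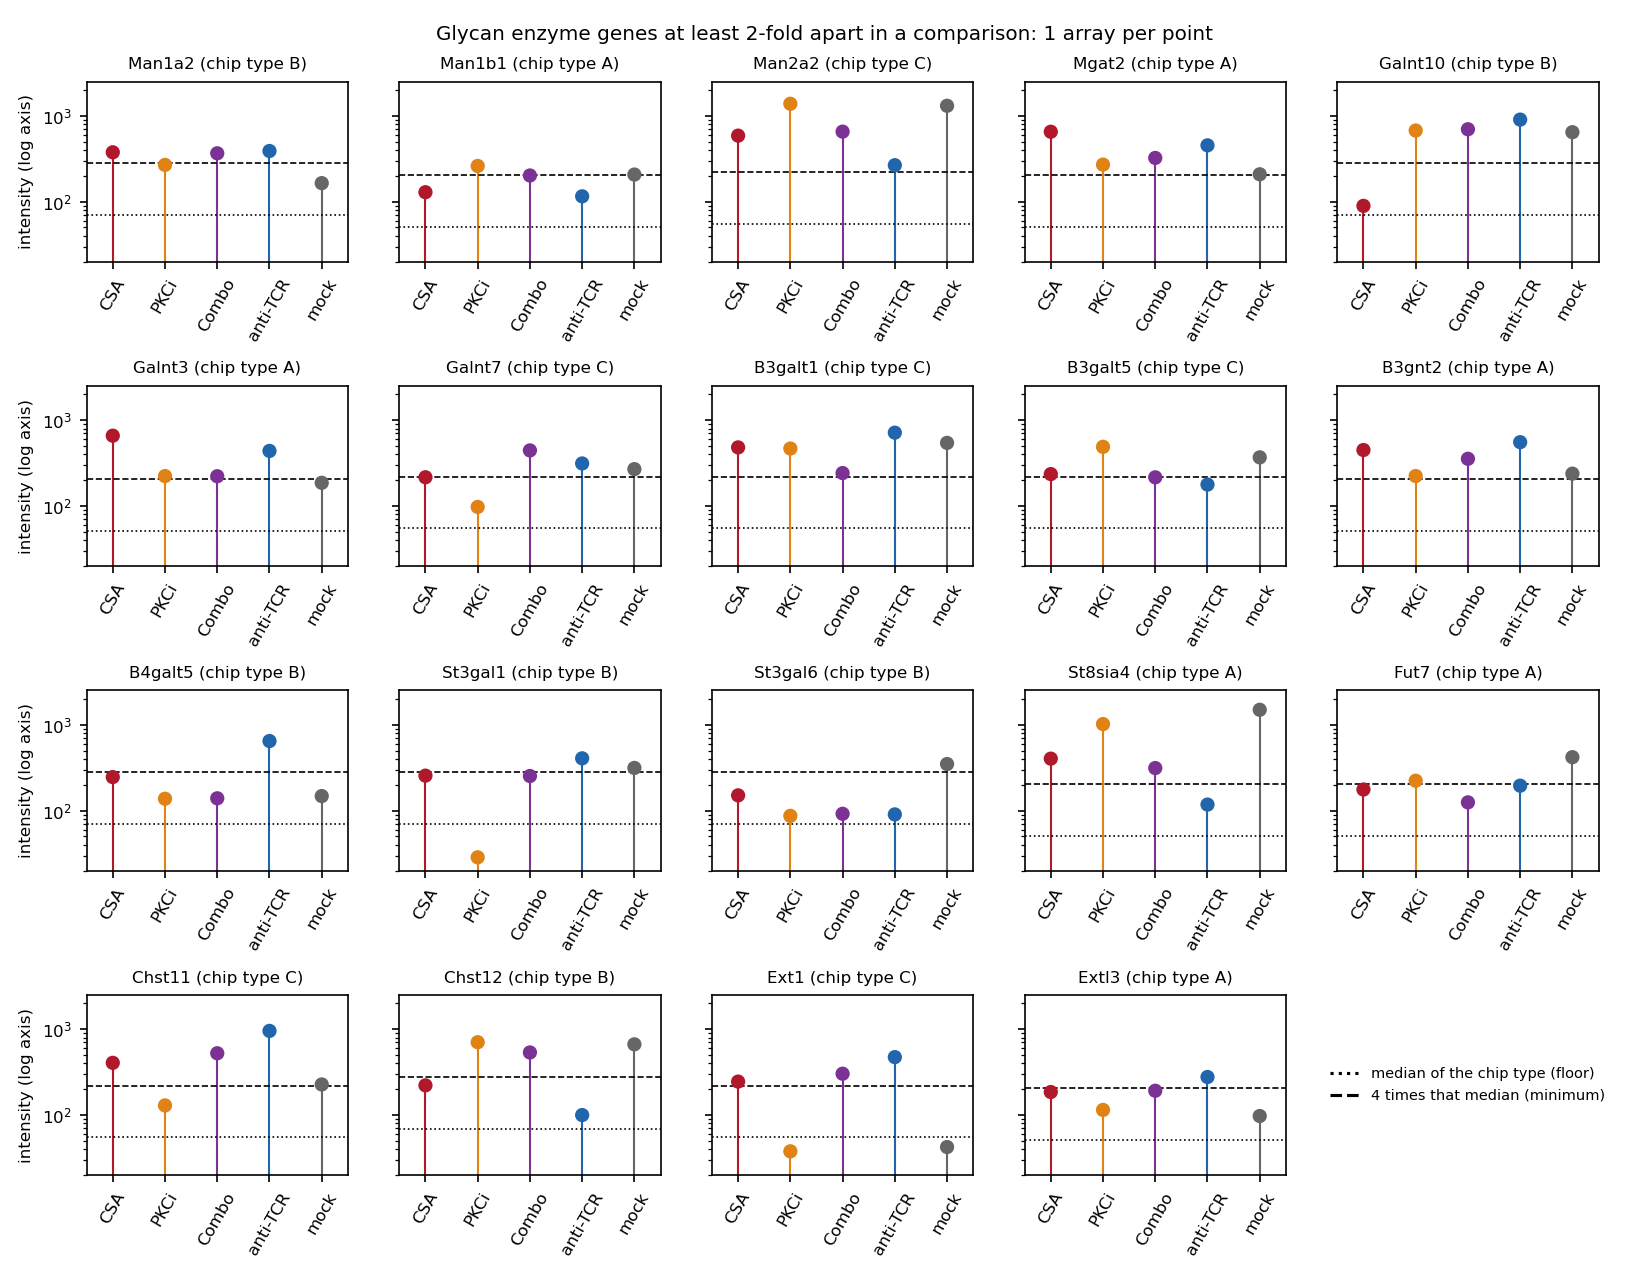
Intensity (log axis) of the 19 members that were at least 2-fold apart in 1 or more comparisons, with 1 array per point, from left to right CSA, PKCi, Combo and anti-TCR alone, then mock. The dotted line is the chip type median used as floor and the dashed line is 4 times that median; St8sia4 read 118 with anti-TCR alone and 1491 with mock.

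Of the promoter windows RefSeq gives for these members (GRCm38.p6, 250 bases before to 50 after a start site), 6 are shown. Those of St8sia4, Chst12, Chst11 and B4galt5 belong to genes whose change with anti-TCR alone was over 2 technical SDs, and those of B4galt5, B3gnt2 and Galnt3 hold a match to the site of the EGR zinc finger factors, which T cell receptor signals induce. The changes of B3gnt2 and Galnt3 were under 2 technical SDs. The first 2 belong to genes that fell with anti-TCR alone and the other 4 to genes that rose. Capitals mark the EGR site (GCGNGGGCG) and the GC box (GGGCGG) on either strand; the motifs can overlap and then form 1 run.
St8sia4 (chr1:95667545-95667844, minus strand): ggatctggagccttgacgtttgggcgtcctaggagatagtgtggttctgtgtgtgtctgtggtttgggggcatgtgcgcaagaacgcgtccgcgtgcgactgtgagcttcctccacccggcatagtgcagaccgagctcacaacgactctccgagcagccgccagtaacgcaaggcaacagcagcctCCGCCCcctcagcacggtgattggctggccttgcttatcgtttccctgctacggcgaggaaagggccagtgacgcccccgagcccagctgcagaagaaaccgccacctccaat
Chst12 (chr5:140505359-140505658, plus strand): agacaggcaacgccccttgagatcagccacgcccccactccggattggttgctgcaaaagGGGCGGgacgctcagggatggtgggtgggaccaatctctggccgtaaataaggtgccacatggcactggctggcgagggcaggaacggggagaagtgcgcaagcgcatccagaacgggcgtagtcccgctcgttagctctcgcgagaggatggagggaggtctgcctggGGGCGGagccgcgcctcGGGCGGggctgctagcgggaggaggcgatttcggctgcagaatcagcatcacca
Chst11 (chr10:82985247-82985546, plus strand): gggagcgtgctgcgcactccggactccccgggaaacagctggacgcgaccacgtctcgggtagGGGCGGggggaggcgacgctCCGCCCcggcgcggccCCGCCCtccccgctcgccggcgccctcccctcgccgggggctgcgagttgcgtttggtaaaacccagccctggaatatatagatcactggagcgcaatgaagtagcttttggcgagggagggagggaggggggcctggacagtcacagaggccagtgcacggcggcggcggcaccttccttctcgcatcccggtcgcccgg
B4galt5 (chr2:167349129-167349428, minus strand): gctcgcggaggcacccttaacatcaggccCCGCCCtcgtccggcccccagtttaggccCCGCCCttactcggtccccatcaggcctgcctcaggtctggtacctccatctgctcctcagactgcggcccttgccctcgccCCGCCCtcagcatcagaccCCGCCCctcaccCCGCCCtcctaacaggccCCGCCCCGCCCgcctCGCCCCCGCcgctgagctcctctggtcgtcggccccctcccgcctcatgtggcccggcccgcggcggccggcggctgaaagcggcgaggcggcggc
B3gnt2 (chr11:22859686-22859985, minus strand): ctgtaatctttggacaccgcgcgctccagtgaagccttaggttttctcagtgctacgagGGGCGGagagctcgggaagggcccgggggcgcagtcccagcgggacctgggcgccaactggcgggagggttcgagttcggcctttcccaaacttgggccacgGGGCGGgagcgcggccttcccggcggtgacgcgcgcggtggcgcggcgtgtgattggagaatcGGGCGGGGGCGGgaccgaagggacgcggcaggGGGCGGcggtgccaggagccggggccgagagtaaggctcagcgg
Galnt3 (chr2:66124744-66125043, minus strand): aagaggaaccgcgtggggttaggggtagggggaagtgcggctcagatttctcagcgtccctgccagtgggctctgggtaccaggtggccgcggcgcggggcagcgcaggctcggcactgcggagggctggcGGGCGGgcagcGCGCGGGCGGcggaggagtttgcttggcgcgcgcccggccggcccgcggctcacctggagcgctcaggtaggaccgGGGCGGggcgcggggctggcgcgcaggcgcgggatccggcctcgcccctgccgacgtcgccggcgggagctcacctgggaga
The EGR site was present in the windows of B4galt5, B3gnt2 and Galnt3, 3 of the 5 members that rose and have a window (5 windows in all). It was in 0 of the 5 that fell (9 windows) and in 0 of the 19 other members above the minimum (26 windows). Among all 32851 windows 5.55% held it, as did 14.4% of the 11714 windows with a GC box. The GC box was in 35.7% of all windows. It was found for all 5 risers, for 4 of the 5 members that fell and for 13 of the 19 others. The AP-1 site (TGANTCA), the CRE (TGACGTCA) and the FOXO site (TGTTTAC) had no match in the windows of the 14 changed members that have one, and are in 7.81%, 1.79% and 3.65% of all windows. The NFAT site (TGGAAA, in 21.4% of all windows) matched in windows of Galnt7 and St3gal6, and the E-box (CACGTG, in 7.15%) in a window of B3galt5. Of the windows shown, G and C made up 75% (B4galt5), 71.3% (B3gnt2), 76.7% (Galnt3) and 71% (Chst11) in genes that rose. In those that fell they made up 61.3% (St8sia4) and 65% (Chst12). The windows shown were picked, in part for the EGR site, which is itself nearly all G and C. The shares of the other windows are not given, so no difference between risers and fallers can be read from these. The motifs were chosen with earlier results of these data known, and the groups come from these same arrays. These matches describe letters in a short window and say nothing of binding, and a part of any motif in the changes was not tested.

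Among the sialyltransferases, St8sia4 and St3gal6 fell and St3gal1 was lowest with PKCi. St8sia4 encodes a polysialyltransferase, which builds polysialic acid on a few carrier proteins such as NCAM. Its intensity was 403 with CSA, 1016 with PKCi, 313 with Combo, 118 with anti-TCR alone and 1491 with mock. The value with anti-TCR alone was the lowest and the mock value the highest, with PKCi nearest to mock. The log2 ratio was -3.66 for anti-TCR alone against mock, the largest change in size among the members in that comparison, and 1.78 (CSA), 3.11 (PKCi) and 1.41 (Combo) for the inhibitor arms against anti-TCR alone. Against mock, St8sia4 was 3.70-fold lower with CSA, 1.47-fold lower with PKCi and 4.77-fold lower with Combo. A second St8sia4 probe set on chip type C stayed near or below the median in all treatments (28.6 to 60.8) and could not be read.

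St3gal6, which caps type 2 lactosamine chains of selectin ligands with sialic acid, read 151 with CSA, 86.9 with PKCi, 91.8 with Combo, 90.3 with anti-TCR alone and 348 with mock. All 4 stimulated samples lay below mock, and only the mock value reached the minimum. The gene was 3.86-fold lower with anti-TCR alone than with mock. The differences from mock were 2.31-fold with CSA, 4.01-fold with PKCi and 3.79-fold with Combo. Its other 2 probe sets did not reach the minimum but had the same order of anti-TCR and mock. The one on chip type A gave 75.2 with CSA, 71.2 with PKCi, 44.2 with Combo, 66.3 with anti-TCR alone and 184 with mock. On chip type C the values were 104, 86.8, 75.0 and 54.1 in the same 4 stimulated samples and 177 with mock. In each of the 3 probe sets, mock was the highest value and lay apart from every stimulated sample.

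St3gal1 adds sialic acid to the galactose of core 1 O-glycans, and mice without it are known to lose peripheral CD8 T cells. It read 255 with CSA, 28.6 with PKCi, 253 with Combo, 406 with anti-TCR alone and 314 with mock. With PKCi the signal fell below the median, at least 5.84-fold under anti-TCR alone and at least 4.52-fold under mock. The other 4 samples lay between 253 and 406, and anti-TCR alone against mock did not pass the size rule (log2 ratio 0.37). The second probe set, on chip type A, was again lowest with PKCi (78.3), against 229 with anti-TCR alone, a log2 ratio of -1.55. With CSA, Combo and mock it read 136, 176 and 138. St3gal4, whose product also helps to form selectin ligands, was read within 204 to 311 and changed by 2-fold in none of the 4 comparisons.

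**Figure D2:**
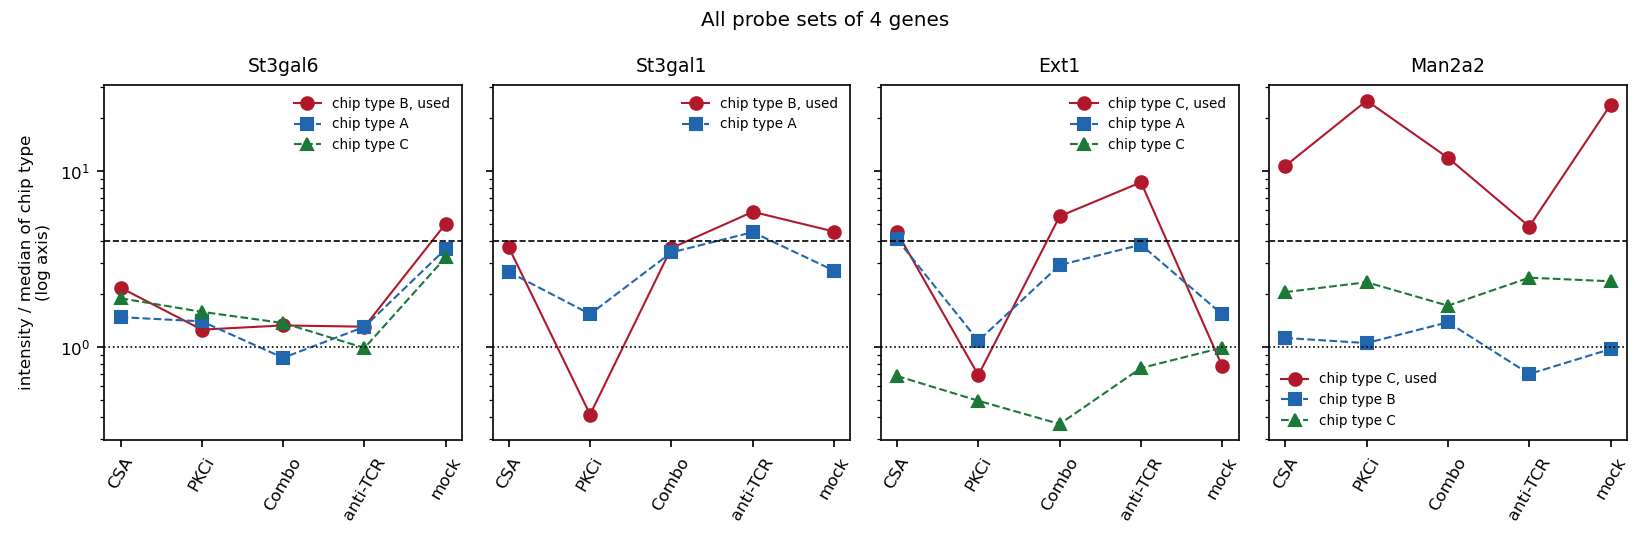
Intensity over the chip type median (log axis) of every probe set of St3gal6, St3gal1, Ext1 and Man2a2, genes picked after their values were seen, from left to right CSA, PKCi, Combo and anti-TCR alone, then mock. Solid lines mark the probe set used; the 3 probe sets of St3gal6 were all highest with mock, while of the dimmer 2 of Man2a2 the one on chip type B was lowest with anti-TCR alone, as was the bright one, and the one on chip type C was highest there.

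Of the 2 carbohydrate sulfotransferases above the minimum, 1 rose and 1 fell with anti-TCR alone, beside 11.4% and 13.9% of all genes. Both Chst11 and Chst12 transfer sulfate to position 4 of GalNAc in chondroitin chains. Chst11 read 406 with CSA, 130 with PKCi, 525 with Combo, 955 with anti-TCR alone and 227 with mock. Chst12 read 222 with CSA, 705 with PKCi, 536 with Combo, 100 with anti-TCR alone and 667 with mock. Anti-TCR alone thus gave the highest Chst11 value and the lowest Chst12 value of the 5 samples, and PKCi gave the lowest Chst11 value and the highest Chst12 value. With anti-TCR alone Chst11 was 4.20-fold higher than with mock and Chst12 6.66-fold lower. With PKCi Chst11 was 7.37-fold lower and Chst12 7.04-fold higher than with anti-TCR alone. CSA lowered Chst11 2.35-fold, whereas its log2 ratio with Combo (-0.86) did not pass; Combo raised Chst12 5.35-fold, and CSA against anti-TCR alone was not measured for Chst12 because both values were below the minimum. Each gene has 1 probe set.

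The heparan sulfate polymerases rose with anti-TCR alone in 2 of 3 cases, beside 11.4% of all genes. Ext1 and Ext2 together form the enzyme that lengthens heparan sulfate, and Extl3 starts the chain. Ext1 read 246 with CSA, 37.9 with PKCi, 303 with Combo, 473 with anti-TCR alone and 42.5 with mock. Its signal was below the median with PKCi and with mock, so the rise with anti-TCR alone and the fall with PKCi were both at least 8.60-fold. The f suffix of this probe set marks sequence shared with other transcripts. A second Ext1 probe set, on chip type A, read 209 with CSA, 55.2 with PKCi, 149 with Combo, 194 with anti-TCR alone and 77.9 with mock, so that PKCi and mock were again the 2 lowest. There CSA against anti-TCR alone had a log2 ratio of 0.10, against -0.95 on the first probe set. Neither its anti-TCR nor its mock value reached the minimum, so that ratio was not measured there. Another Ext1 probe set, on chip type C, stayed below the median, with 54.3 at its highest (mock). Extl3 read 186 with CSA, 115 with PKCi, 192 with Combo, 278 with anti-TCR alone and 97.6 with mock. It was 2.84-fold higher with anti-TCR alone than with mock and 2.42-fold lower with PKCi than with anti-TCR alone. These changes were 1.99 and 1.78 technical SDs, both under 2. Only its value with anti-TCR alone reached the minimum, so Extl3 entered the count of 2 in 3 through that sample. Ext2 changed by 2-fold in none of the 4 comparisons, with 313 at its highest (PKCi) and 138 at its lowest (mock), 2.27-fold apart.

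Of the genes that add galactose or N-acetylglucosamine to growing chains 9 were above the minimum, and B4galt5 changed in all 4 comparisons. B4galt5 makes lactosylceramide, the base of most glycosphingolipids. It read 246 with CSA, 138 with PKCi, 139 with Combo, 645 with anti-TCR alone and 148 with mock. Only anti-TCR alone reached the minimum, and PKCi and Combo lay close to mock. The rise was 4.37-fold, and the gene was lower than with anti-TCR alone by 2.63-fold (CSA), 4.69-fold (PKCi) and 4.64-fold (Combo). B3gnt2, the main enzyme of poly-N-acetyllactosamine in T cells, read 450 with CSA, 224 with PKCi, 356 with Combo, 555 with anti-TCR alone and 239 with mock. It rose 2.32-fold with anti-TCR alone and fell 2.48-fold with PKCi, while CSA (log2 ratio -0.30) and Combo (-0.64) did not pass. Both changes were under 2 technical SDs. A second B3gnt2 probe set on chip type A, below the minimum, read 116.5 with CSA, 124 with PKCi, 132 with Combo, 178 with anti-TCR alone and 104 with mock. The one on chip type B stayed far below the median (0.9 to 16.6).

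The other extension genes gave smaller or single changes. B3galt1, which makes type 1 chains, read 482 with CSA, 468 with PKCi, 242 with Combo, 716 with anti-TCR alone and 544 with mock, and fell 2.95-fold with Combo against anti-TCR alone. That fall rests on a single probe set, since the other B3galt1 probe sets, on chip types A and C, stayed far below the median (0.9 to 22.2). B3galt5, also a type 1 chain enzyme, was read on an r-suffixed probe set, which breaks a probe selection rule. It read 236 with CSA, 490.2 with PKCi, 216 with Combo, 178 with anti-TCR alone and 369 with mock. It was 2.07-fold lower with anti-TCR alone than with mock (log2 ratio -1.05, and -0.98 with median scaling, which ends that call) and 2.75-fold higher with PKCi than with anti-TCR alone. B4galt1, the galactosyltransferase of most N-glycans, read 743 with CSA, 1048 with PKCi, 687 with Combo, 828 with anti-TCR alone and 849 with mock, and passed the size rule in none of the 4 comparisons. B3gnt7, an enzyme of keratan sulfate-type chains, has an r-suffixed probe set too and stood at 1149 with CSA, 1019 with PKCi, 1289 with Combo, 1701 with anti-TCR alone and 1147 with mock, with log2 ratios between -0.74 and 0.57. B4galt3 and B4galt4 also passed in none of them, and B3galt6, measured with CSA against anti-TCR alone only, did not pass there.

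**Figure D3:**
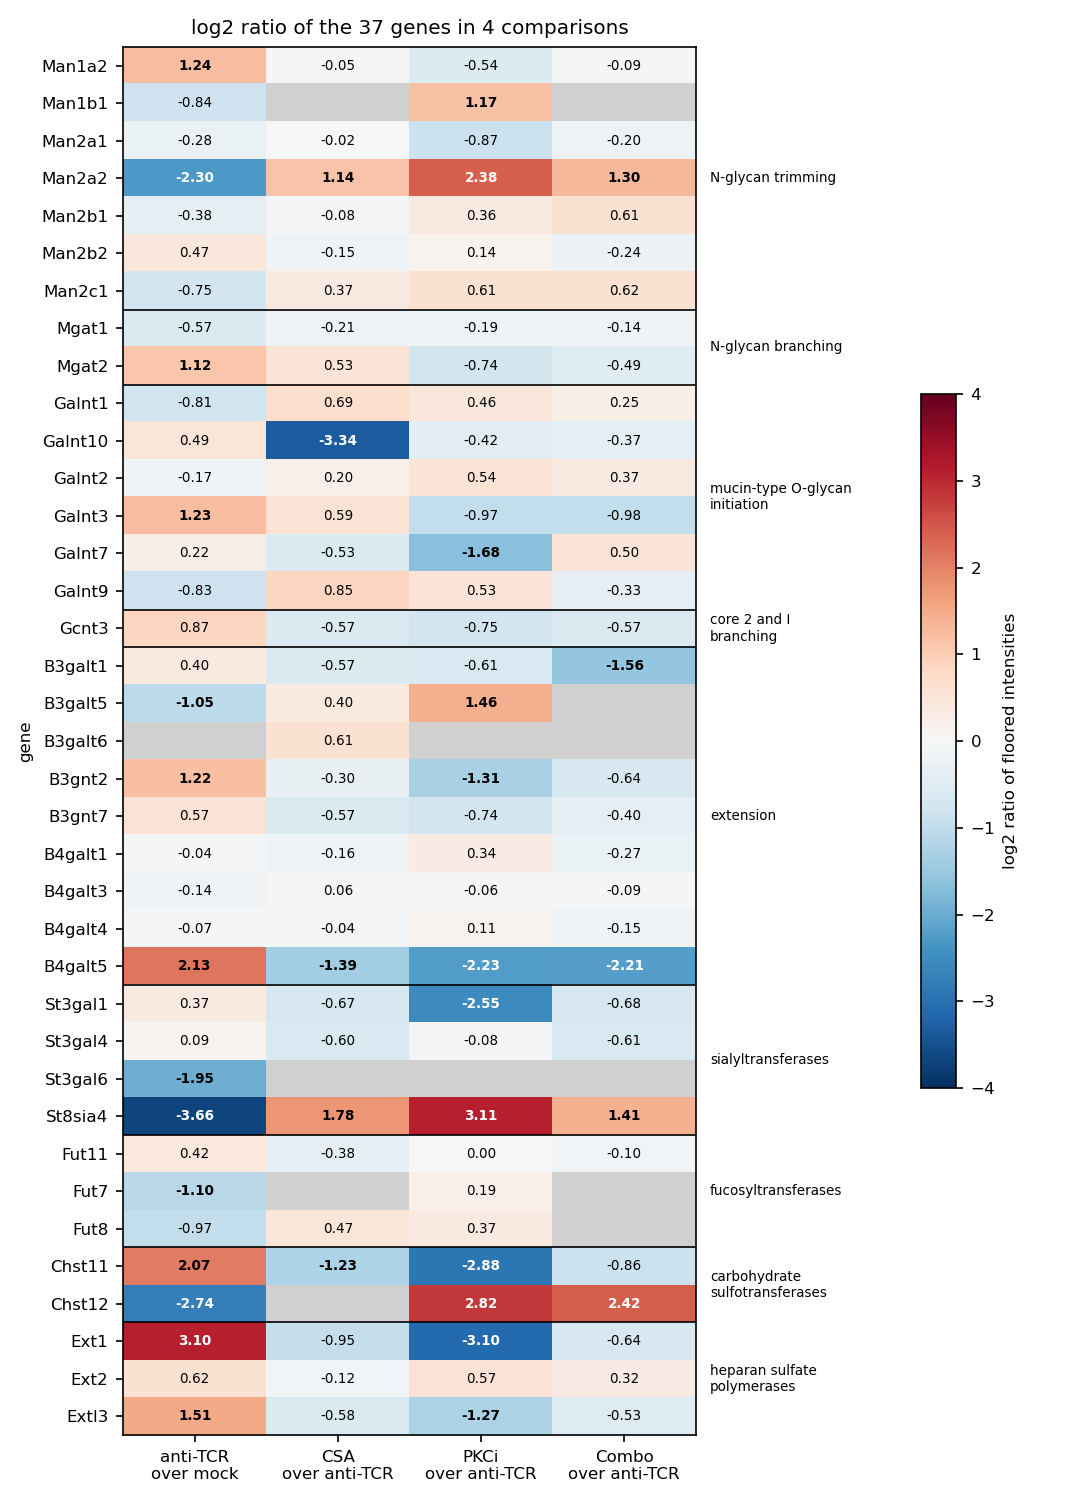
Log2 ratio of floored intensities for the 37 members (rows, grouped by role) in the 4 comparisons (columns), with values of 1 or more in size in bold. Grey marks a comparison in which neither value reached the minimum; red is higher and blue lower in the sample named first, as for Ext1 (3.10 with anti-TCR alone over mock).

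In the N-glycan pathway the early trimming enzyme Man1a2, on the probe set used, and the branching enzyme Mgat2 rose, and Man2a2 fell. The rises of Man1a2 and Mgat2 were under 2 technical SDs. Man2a2 encodes Golgi alpha-mannosidase IIx, which removes mannose before complex branches are built. Man2a2 read 586 with CSA, 1377 with PKCi, 652 with Combo, 265 with anti-TCR alone and 1304 with mock. The value with anti-TCR alone was the lowest, and those with PKCi and mock were the 2 highest. It was 4.92-fold lower with anti-TCR alone than with mock, and higher than with anti-TCR alone by 2.21-fold (CSA), 5.19-fold (PKCi) and 2.46-fold (Combo). Its other 2 probe sets were under the minimum. The one on chip type C ranged from 94.1 to 136 and was highest with anti-TCR alone. The one on chip type B read 77.9 with CSA, 72.9 with PKCi, 95.7 with Combo, 48.6 with anti-TCR alone and 67.4 with mock, again lowest with anti-TCR alone but close to the median. Man2a1, the related mannosidase II, read 266 with CSA, 147 with PKCi, 234 with Combo, 269 with anti-TCR alone and 327 with mock and passed the size rule in none of the 4 comparisons. Set against mock, it was 2.22-fold lower with PKCi.

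Mgat2, which starts the second antenna of complex N-glycans, read 650.4 with CSA, 270 with PKCi, 322 with Combo, 452 with anti-TCR alone and 208 with mock, a 2.17-fold rise with anti-TCR alone. Mgat1, which starts the first antenna, read 315 with CSA, 319 with PKCi, 330 with Combo, 363 with anti-TCR alone and 541 with mock and passed in none of the 4 comparisons. For Mgat1, 2 further bright probe sets gave log2 ratios of 0.31 and -0.07 for anti-TCR alone against mock, beside -0.57 on the one used. Man1a2, a Golgi alpha-1,2-mannosidase, read 375 with CSA, 267 with PKCi, 365 with Combo, 388 with anti-TCR alone and 164 with mock, and was 2.37-fold higher with anti-TCR alone than with mock. On its second bright probe set that log2 ratio was 0.06, against 1.24, so the rise depends on the probe set. Man1b1, the alpha-1,2-mannosidase that also marks misfolded glycoproteins for disposal, read 129 with CSA, 260 with PKCi, 201 with Combo, 115 with anti-TCR alone and 207 with mock, and was 2.26-fold higher with PKCi than with anti-TCR alone. The lysosomal mannosidases Man2b1 and Man2b2 and the cytosolic Man2c1 stayed within 2-fold in all 4 comparisons. Man2c1 read 569 with CSA, 676 with PKCi, 677 with Combo, 441 with anti-TCR alone and 743 with mock. The 2 bright Man2b1 probe sets on different chip types ran closely together, with log2 ratios of -0.38 and -0.48 for anti-TCR alone against mock.

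Of the polypeptide GalNAc-transferases, which start mucin-type O-glycans, 6 were above the minimum, and each changed in at most 1 of the 4 comparisons. Galnt3 read 660 with CSA, 224 with PKCi, 223 with Combo, 439 with anti-TCR alone and 187 with mock. It rose 2.35-fold with anti-TCR alone, and its second bright probe set gave a log2 ratio of 0.53 in place of 1.23. With PKCi (-0.97) and Combo (-0.98) it lay just short of 2-fold below anti-TCR alone. Galnt7, which prefers peptides that already carry GalNAc, read 217 with CSA, 97.8 with PKCi, 445 with Combo, 314 with anti-TCR alone and 269 with mock, and fell 3.21-fold with PKCi. That fall rests on a single probe set. Both other Galnt7 probe sets, on chip type B, stayed below the median, where their highest values were those with PKCi (40.8 and 52.5). Galnt10 read 89.2 with CSA, 672 with PKCi, 695 with Combo, 901 with anti-TCR alone and 643 with mock. The CSA sample stood apart from the other 4, 10.1-fold below anti-TCR alone and 7.21-fold below mock. That probe set has an r suffix, and the other 2 of Galnt10, all under the minimum, gave 91.3 with CSA against 135 with anti-TCR alone on chip type B and 48.1 against 12.3 on chip type A.

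Galnt9 read 1095 with CSA, 876 with PKCi, 484 with Combo, 609 with anti-TCR alone and 1086 with mock, with log2 ratios from -0.83 to 0.85 in the 4 comparisons, none past the size rule. Set against mock, it was 2.25-fold lower with Combo. Galnt1 and Galnt2, which are broadly expressed, also stayed within 2-fold in the 4 comparisons. Gcnt3, which branches O-glycans at core 2 and core 4, was the one Gcnt gene above the minimum; it read 845 with CSA, 747 with PKCi, 845 with Combo, 1253 with anti-TCR alone and 686 with mock. The highest Gcnt3 value was with anti-TCR alone, but its log2 ratio against mock (0.87) did not pass. The other Gcnt3 probe set, also on chip type C, stayed below the median (10.4 to 25.8).

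Among the fucosyltransferases, Fut7 fell. Fut7 adds the fucose that completes sialyl Lewis x on selectin ligands. It was read on an s-suffixed probe set, which can bind more than 1 transcript, and gave 176 with CSA, 223 with PKCi, 125 with Combo, 195 with anti-TCR alone and 419 with mock. All 4 stimulated samples lay below mock, and anti-TCR alone was 2.15-fold lower than mock. Against mock the gene was 2.38-fold lower with CSA, 1.88-fold lower with PKCi and 3.36-fold lower with Combo. Fut8, the core fucosyltransferase, read 273 with CSA, 254 with PKCi, 199 with Combo, 197 with anti-TCR alone and 387 with mock; anti-TCR alone was 1.96-fold below mock, just short of the size rule. Fut11 ranged from 292 to 391 over the 5 samples on the probe set used. A second Fut11 probe set above the minimum, on chip type C, read 117 with CSA, 234 with PKCi, 160.0 with Combo, 85.8 with anti-TCR alone and 80.9 with mock. There PKCi against anti-TCR alone had a log2 ratio of 1.45, against 0.00 on the first, so the 2 probe sets disagree.

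Against anti-TCR alone, CSA raised 2 of 33 measured members (6.06%, against 4.84% of all genes) and lowered 3 (9.09%, against 5.34%), 5 changes in all, against 10.2% of all genes in either direction. St8sia4 and Man2a2 were higher, and Galnt10, B4galt5 and Chst11 lower. PKCi raised 5 of 35 (14.3%, against 14.3%), namely St8sia4, Chst12, Man2a2, B3galt5 and Man1b1, and lowered 7 (20%, against 9.75%), namely Ext1, Chst11, St3gal1, B4galt5, Galnt7, B3gnt2 and Extl3. In either direction these were 12 of 35, against 24% of all genes. Combo raised 3 of 31 (9.68%, against 7.95%), which were Chst12, St8sia4 and Man2a2, and lowered 2 (6.45%, against 5.46%), B4galt5 and B3galt1, which makes 5 of 31 in either direction, against 13.4% of all genes. The median log2 ratio was -0.12 with CSA, -0.06 with PKCi and -0.24 with Combo, against 0.03, 0.03 and 0.02 over all genes measured. All 5 changes with CSA, 9 of the 12 with PKCi and all 5 with Combo were larger than 2 technical SDs. The exceptions with PKCi were B3gnt2, Extl3 and Man1b1. These comparisons and that of anti-TCR alone against mock share the anti-TCR array of each chip type, so a low or high value there moves all 4.

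**Figure D4:**
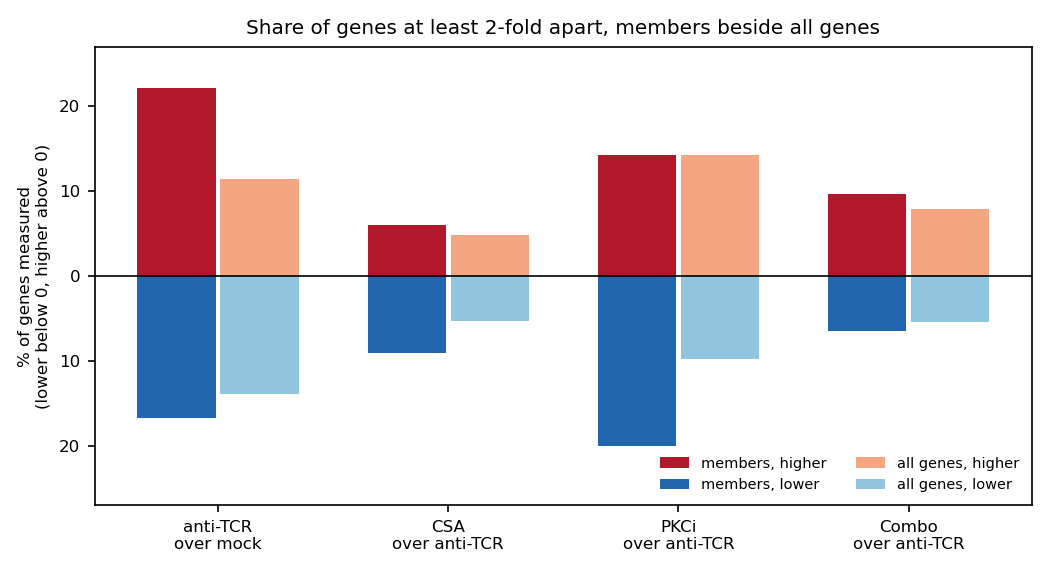
Percent of measured genes at least 2-fold higher (above 0) or lower (below 0) in the sample named first, for the members (dark bars) and for all genes (light bars), in the 4 comparisons. With anti-TCR alone over mock 22.2% of the members were higher, against 11.4% of all genes; with PKCi over anti-TCR alone the higher shares were both 14.3%.

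The other steps of glycan metabolism were followed with lists of further genes, whose counts with anti-TCR alone stand beside 11.4% of all genes higher and 13.9% lower. Of 15 measured genes of sugar nucleotide supply 2 rose with anti-TCR alone and 0 fell, a share of risers near that of all genes. They were Gmppb, which makes GDP-mannose (255 with anti-TCR alone and 63.6 with mock), and Pgm3, of the UDP-GlcNAc route (294 and 136). With PKCi both fell, to 81.8 and 115. Cmas, which activates sialic acid, was 1233 with CSA and 309 with anti-TCR alone. Of 28 genes of N-glycan precursor assembly and transfer 3 rose with anti-TCR alone and 2 fell, near or below the shares of all genes. Among those that rose, Alg10b was at 948 with anti-TCR alone against 348 with mock and Ddost, an oligosaccharyltransferase subunit, at 339 against 137. The 2 that fell were Dpm3 (282 with anti-TCR alone against 933 with mock) and Krtcap2 (931 against 2120), both on f-suffixed probe sets.

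Of 14 measured related transferases outside the symbol rule 3 rose and 3 fell with anti-TCR alone (all genes 11.4% and 13.9%). Ust, which sulfates uronic acid in chondroitin chains, read 383 with CSA, 352 with PKCi, 492 with Combo and 1139 with anti-TCR alone, against 397 with mock. Ugcg, which makes glucosylceramide, was 669 with anti-TCR alone and 1411 with mock, and B4galnt1, which makes the gangliosides GM2 and GD2, was 2427 with anti-TCR alone and 982 with mock. Chsy1, a chondroitin synthase, was 1206 with PKCi and 3389 with anti-TCR alone. Of 9 genes of glycan removal 0 rose and 4 fell with anti-TCR alone (all genes 11.4% and 13.9%). Engase, a cytosolic endoglycosidase, read 70.2 with anti-TCR alone against 282 with mock, and 260 with CSA, 256 with PKCi and 268 with Combo. Among 11 glycan carriers and lectins 0 rose and 1 fell with anti-TCR alone (all genes 11.4% and 13.9%), namely Selplg, the selectin ligand PSGL-1, at 1140 against 3448 with mock. With PKCi Selplg was 2333, which is 2.05-fold higher than with anti-TCR alone.

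The remaining 54 genes that match the symbol rule stayed below the minimum in all 5 treatments, and their expression was not measurable here. They include 9 of 11 Chst genes, 7 of 9 Mgat genes, 9 of 13 sialyltransferase genes, 9 of 15 Galnt symbols, 8 of 17 extension genes, 5 of 8 Fut genes, 3 of 10 Man symbols, 2 of 3 Gcnt genes and 2 of 5 Ext and Extl genes. St6gal1, which adds alpha-2,6-linked sialic acid, ranged from 9.3 to 67.6, and Gcnt1, the core 2 enzyme of leukocytes, from 36.1 to 61.8. Low expression and a probe set that does not work cannot be told apart there.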

How the data were processed

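The deposited array intensity values were used as they stand. They are on a linear scale with no value under 0. Within a chip type the means, after trimming 2% at each end, spread by at most 0.242%, which shows a scaling of whole arrays before deposit. For its software, the sources used here give no name. Detection calls were not used. From the deposited values log2 ratios were computed with Python 3.11.15, numpy 2.4.6 and pandas 2.3.3, after values below the chip type median were raised to it. Groups come from the array titles, and only arrays of the same chip type were compared. The platform annotation gives 1 gene symbol to 29131 of 36701 probe sets, several to 724 and none to 6846; the last 2 kinds were left out. Where a gene has several probe sets, the one brightest on average across treatments stands for it; 172 probe sets carry a symbol of the rule, and 6 of the 37 members above the minimum are read on a suffixed probe set. The minimum was reached by 17.4% to 23% of probe sets, depending on the array, and precision is limited by how few arrays there are.

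The technical SD comes from 792 to 867 pairs of probe sets a comparison (the brightest of a gene on each chip type, both above the minimum), divided by the square root of 2; it covers arrays and probes, not cultures. Named with values in all treatments are the 19 members that rose or fell in a comparison and the 6 with the highest signal over the median that did not; of each further list, at most 2 genes that rose and 2 that fell. Further examples were picked with their values in view. The members, lists, motifs and rules were chosen with earlier results of these data known. The steps were tested on simulated data, and 9 alternatives were tried for scaling, floor, minimum and choice of probe set. Promoter sequences are RefSeq's; 14 of the 19 members have a window.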

Additional observations from a re-analysis of the deposited data

How the results depend on the processing

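No paired analysis was possible because each treatment has a single array of a chip type and no replicate numbers; for the same reason no replicate could be left out. Of the 14, 5, 12 and 5 changes of members with anti-TCR alone, CSA, PKCi and Combo, 11, 5, 12 and 5 stayed past 2-fold in each of the 9 alternative settings that gave a value; the exceptions were B3galt5 with median scaling, and Man1a2 and Galnt3 with the mean of bright probe sets or the second brightest one. With a minimum of 2 times the median, 11 of 54 measured members fell with anti-TCR alone in place of 6 of 36. Over all genes these were 1168 of 8599 in place of 808 of 5803. With CSA 5 of 53 members rose in place of 2 of 33, beside 467 of 8293 and 264 of 5453 of all genes. With 8 times the median, 1 of 16 members rose with CSA, beside 138 of 2935 of all genes. With Combo 1 of 17 rose in place of 3 of 31, beside 228 of 3037 and 447 of 5621 of all genes. With PKCi 4 of 19 fell in place of 7 of 35, a similar share, beside 371 of 3232 and 565 of 5793 of all genes. The second brightest probe set was measured for 5 or 6 members in a comparison, far fewer than the 31 to 36 measured in the main setting. Of these 0 rose and 0 fell with anti-TCR alone, CSA and Combo, and 1 rose and 1 fell with PKCi. The one that fell was St3gal1 (log2 ratio -1.55). The one that rose was Fut11 (1.45), which had not changed on the probe set used (0.00). No member's change past 2-fold turned round, though some smaller log2 ratios changed sign, among them those of Ext1 with CSA and of Man1a2 with CSA and Combo. Of the log2 ratios of the 19 changed members under the alternatives, 568 lay within 1 technical SD of the value given and 11 did not: those of Ext1, Man1a2, Galnt10 and St3gal1, among them St3gal1 with PKCi, which was -3.83 without a floor (an alternative added after the data were seen), -3.55 with 0.5 times the floor and -1.55 with 2 times the floor. Ext1 with CSA was 0.10 without suffixed probe sets, against -0.95. Genes under the minimum, 54 of 91, have no usable ratio, and near 2-fold the technical SD is close to the size of a change.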

Other observations

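Many genes of the family stayed below the minimum of their chip type in all 5 samples but reached over 2 times its median in at least 1. Only some of them are given here, without any call, and they were picked after the data were seen. Others were nearly flat, such as Galnt6, which ranged from 133 to 146 over the 5 samples, so the ones named do not stand for the rest. Mgat5, which starts the branch that galectins bind on T cell glycoproteins, read 236 with CSA, 53.4 with PKCi, 48.1 with Combo, 75.0 with anti-TCR alone and 54.7 with mock, so that the CSA sample stood above the other 4. Mgat4b, which starts another antenna, read 98.8 with CSA, 139 with PKCi, 119 with Combo, 84.7 with anti-TCR alone and 242 with mock. Mgat4a, its close relative on chip type C, read 27.2 with CSA, 19.7 with PKCi, 19.4 with Combo, 32.5 with anti-TCR alone and 159 with mock. For both Mgat4 genes mock was the highest sample, but every stimulated Mgat4a value lay below the chip type median (55.0). Mgat5 was below its chip type median (69.5) with PKCi, Combo and mock. Mgat4a and Mgat5 each have 2 probe sets, of which only the brighter is given. B3gnt5, which starts the lacto-series glycolipids, read 165 with CSA, 141 with PKCi, 121 with Combo, 82.6 with anti-TCR alone and 255 with mock, again with mock highest and anti-TCR alone lowest. Chst10, which sulfates the HNK-1 epitope, read 200 with CSA, 148 with PKCi, 172 with Combo, 83.4 with anti-TCR alone and 173 with mock, with anti-TCR alone the lowest of the 5.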
